A study of Mus musculus with 9 samples.

Results

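The clustered protocadherin genes lie in tandem on mouse chromosome 18 and encode cell adhesion proteins that give single neurons distinct surface identities. The members were every protein-coding gene of GENCODE M21 on chromosome 18 whose name starts with Pcdha, Pcdhb or Pcdhg followed by a further letter or digit. This rule gave 57 of 21938 protein-coding genes on chromosomes 1 to 19, X and Y, with 14 alpha, 22 beta and 21 gamma members. All lie on the plus strand of chr18:36930184-37841873 (mm10), a span of 911.69 kb. The annotation gives the name Pcdha11 to 2 genes, ENSMUSG00000007440.10 and ENSMUSG00000102206.5. The values below for Pcdha11 belong to the latter, since the former had no peak in any list.

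Open DNA was measured by ATAC-seq, which uses the Tn5 transposase to cut and tag it, in mouse embryonic fibroblasts (MEFs) of low passage. WT cells were wild type (3 libraries), and Anp32e null cells lacked ANP32E, a chaperone that removes the histone variant H2A.Z from nucleosomes (3 libraries). NT siRNA cells were Anp32e null cells transfected with a non-targeting siRNA pool (1 library), and H2A.Z siRNA cells were Anp32e null cells transfected with a pool of siRNAs against H2A.Z (2 libraries). Thus both siRNA groups carry the Anp32e deletion, and no siRNA was given to WT cells.

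Each group came as 1 peak list that pools its libraries, so no value has an error between replicates and no difference between groups could be tested. Intervals below are 95% intervals for counting error only. The pileup of a peak is the number of fragments over its summit, and the scaled pileup is that number divided by the genome-wide background of its list. That background was 8.85 fragments in WT, 5.12 in Anp32e null, 3.88 in NT siRNA and 17.8 with H2A.Z siRNA, and it stands in for depth. At background level the lowest pileup called was 19, 13, 11 and 32 in the same order, so an uncalled member is not shown to be closed. Between 82567 and 108409 peaks were listed per group, of which 2925 to 3895 lay on chromosome 18. All 10 fibroblast marker genes had a peak at a TSS in every list, and so did 1 of 4 leukocyte markers (Cd68, with Spi1 called in H2A.Z siRNA only, and Ptprc and Cd3e in none). Of 4 endothelial markers, 3 were called in Anp32e null and 4 in each of the other lists, and of 4 epithelial markers 2, 2, 3 and 3 were called. Anp32e, H2afz and H2afv had TSS peaks in all 4 lists, but open promoters check neither a deletion nor a knockdown.

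Each alpha and gamma gene starts at its own variable exon, which is spliced to constant exons shared by the whole part, and beta genes are genes of a single exon. In neurons, most of these promoters are chosen at random through the insulator protein CTCF, cohesin and distant enhancers. The C-type genes (Pcdhac1, Pcdhac2, Pcdhgc3, Pcdhgc4 and Pcdhgc5) lie last in their parts and are used more uniformly among neurons. Gamma proteins also act outside nerve cells, and Pcdhgc4 is known for neuron survival.

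The first question was which of these promoters were open in fibroblasts. A peak within 1 kb of a TSS was found at 27 of 57 members in WT, at 20 in Anp32e null, at 20 in NT siRNA and at 19 with H2A.Z siRNA. The share of all protein-coding genes with such a peak was 67.2%, 66.7%, 66.8% and 68.4% in the same order. Among the 456 other genes of chromosome 18, between 355 and 364 had one. Thus members had TSS peaks less often than the rest of their chromosome in each list, and this came from the alpha and beta parts. In bulk cells, a promoter open in fewer cells and one less open in each cell cannot be told apart. Of 21 gamma members, 16 had a TSS peak in WT, 17 in Anp32e null, 16 in NT siRNA and 17 with H2A.Z siRNA. Of 14 alpha members the counts were 7, 3, 1 and 1, and of 22 beta members 4, 0, 3 and 1. The bar plot of TSS peaks by part sets these shares beside both backgrounds.

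**Figure D1:**
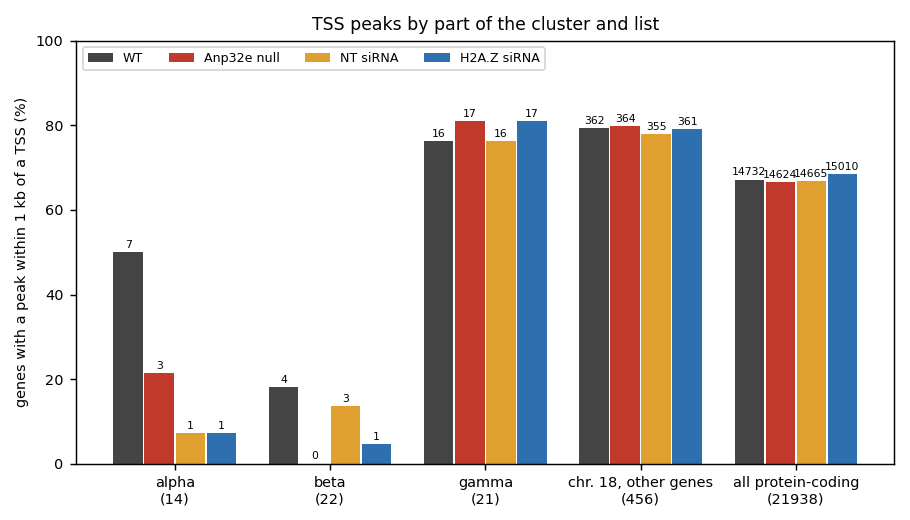
Percent of genes with a peak within 1 kb of a TSS (vertical axis, from 0) in the alpha, beta and gamma parts, in the other genes of chromosome 18 and in all protein-coding genes, with 1 bar per pooled list and the number of genes above it. The gamma bars stand between 76.2% and 81.0%, beside the chromosome 18 genes, while the alpha bars go from 50% in WT to 7.14% in both siRNA lists.

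Over the 4 lists, 15 members had a TSS peak in all, 16 in 1 to 3 and 26 in none. Of the 15, Pcdhac2 is an alpha gene and the other 14 are gamma genes. All 3 gamma C-type genes, 9 of 12 gamma A genes and 2 of 6 gamma B genes were in every list. Pcdhga8, Pcdhgb5 and Pcdhga11 were the gamma members in no list. The first 2 are neighbours, and Pcdhgb4 and Pcdhga9 on either side of them were in all 4 lists. Of the 12 alternate (not C-type) alpha genes 7 were in no list, and of the beta genes 16. Open gamma promoters thus stood side by side with uncalled ones only a few kb away.

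The highest peak of the alpha part lay at Pcdhac2, ENSMUSG00000102697.1, the last variable exon before the alpha constant exons. Its pileup was 285 (253 to 320) in WT, 167 (143 to 194) in Anp32e null, 102 (83.2 to 124) in NT siRNA and 295 (262 to 331) with H2A.Z siRNA. Scaled, these were 32.2, 32.6, 26.3 and 16.6 times background. By scaled pileup the level was thus alike in WT and Anp32e null and lowest in H2A.Z siRNA, with an interval of 14.7 to 18.6. The order turned by fold over local background, which was 10.4, 10.2, 12.5 and 11.6. Ranked by fold enrichment within its own list, the peak stood at percentile 91.5 in WT and between 79.9 and 83.2 in the other lists. The summit lay 621 bp downstream of the TSS in WT, inside the coding exon, and 351 bp downstream, in the UTR, in H2A.Z siRNA.

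Pcdhac1, the other alpha C-type gene, was weaker. Its pileup was 34 (23.5 to 47.5) in WT and 31 (21.1 to 44.0) in Anp32e null, and it was called in neither siRNA list. Both summits lay just upstream of the TSS, at 44 and 33 bp, and the fold percentiles were 41.0 and 49.0. Scaled pileup was 3.84 in WT and 6.06 in Anp32e null, and their log2 ratio relative to the median gene was 0.01 (-0.74 to 0.75), an interval that holds 0.

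The highest member peak of the gamma part lay at Pcdhgc3, ENSMUSG00000102918.1. Its pileup was 267 (236 to 301) in WT, 285 (253 to 320) in Anp32e null, 467 (426 to 511) in NT siRNA and 1618 (1540 to 1699) with H2A.Z siRNA. These were 30.2, 55.7, 120 and 90.8 times the genome-wide background, so by scaled pileup the order was NT siRNA, H2A.Z siRNA, Anp32e null and WT, with no overlap of the counting intervals. Relative to the median gene, the log2 ratio of Pcdhgc3 was 0.23 (-0.01 to 0.48) from WT to Anp32e null. It was 0.01 (-0.21 to 0.23) from Anp32e null to NT siRNA and -0.10 (-0.25 to 0.05) from NT siRNA to H2A.Z siRNA. Each of these relative intervals held 0. The local background around Pcdhgc3 was also high, at 3.85, 6.28, 11.6 and 10.4 times the genome-wide one, and by fold percentile the order was the opposite, with 80.8 in WT, 75.4 in Anp32e null, 69.1 in NT siRNA and 70.5 with H2A.Z siRNA. The summits lay 4 to 53 bp upstream of a TSS. Among the members, Pcdhgc3 had the highest scaled pileup in every list but WT, where Pcdhac2 was at 32.2 against 30.2 and their intervals overlapped.

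Pcdhgc4 had a pileup of 85 (67.9 to 105) in WT, 93 (75.1 to 114) in Anp32e null, 89 (71.5 to 110) in NT siRNA and 360 (324 to 399) with H2A.Z siRNA. Pcdhgc5, the last gene of the cluster, had 61 (46.7 to 78.4), 57 (43.2 to 73.9), 67 (51.9 to 85.1) and 307 (274 to 343) in the same order. Scaled, Pcdhgc4 stood at 9.61, 18.2, 22.9 and 20.2 and Pcdhgc5 at 6.90, 11.1, 17.3 and 17.2. Both genes were lowest in WT by scaled pileup, but not by fold percentile, which was 56.4, 47.7, 29.3 and 40.9 for Pcdhgc4 and 22.7, 6.99, 4.29 and 24.4 for Pcdhgc5. The intervals of their scaled NT siRNA and H2A.Z siRNA levels overlapped. The summits of Pcdhgc5 lay 70 to 151 bp upstream of a TSS, whereas those of Pcdhgc4 lay from 158 bp upstream to 30 bp downstream.

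Among the other gamma members, scaled pileups in WT ran from 2.94 at Pcdhgb1 to 7.35 at Pcdhga7. The 5 members of highest fold percentile in WT were Pcdhac2, Pcdhgc3, Pcdhga7, Pcdhga1 and Pcdhga6, and those of the last 3 had pileups of 65 (50.2 to 82.8), 58 (44.0 to 75.0) and 57 (43.2 to 73.9). They stood at fold percentiles 75.2, 70.2 and 69.4, with summits 83, 111 and 290 bp downstream of the TSS. The pileups of these last 3 did not differ beyond counting error, since their intervals overlap widely.

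**Figure D2:**
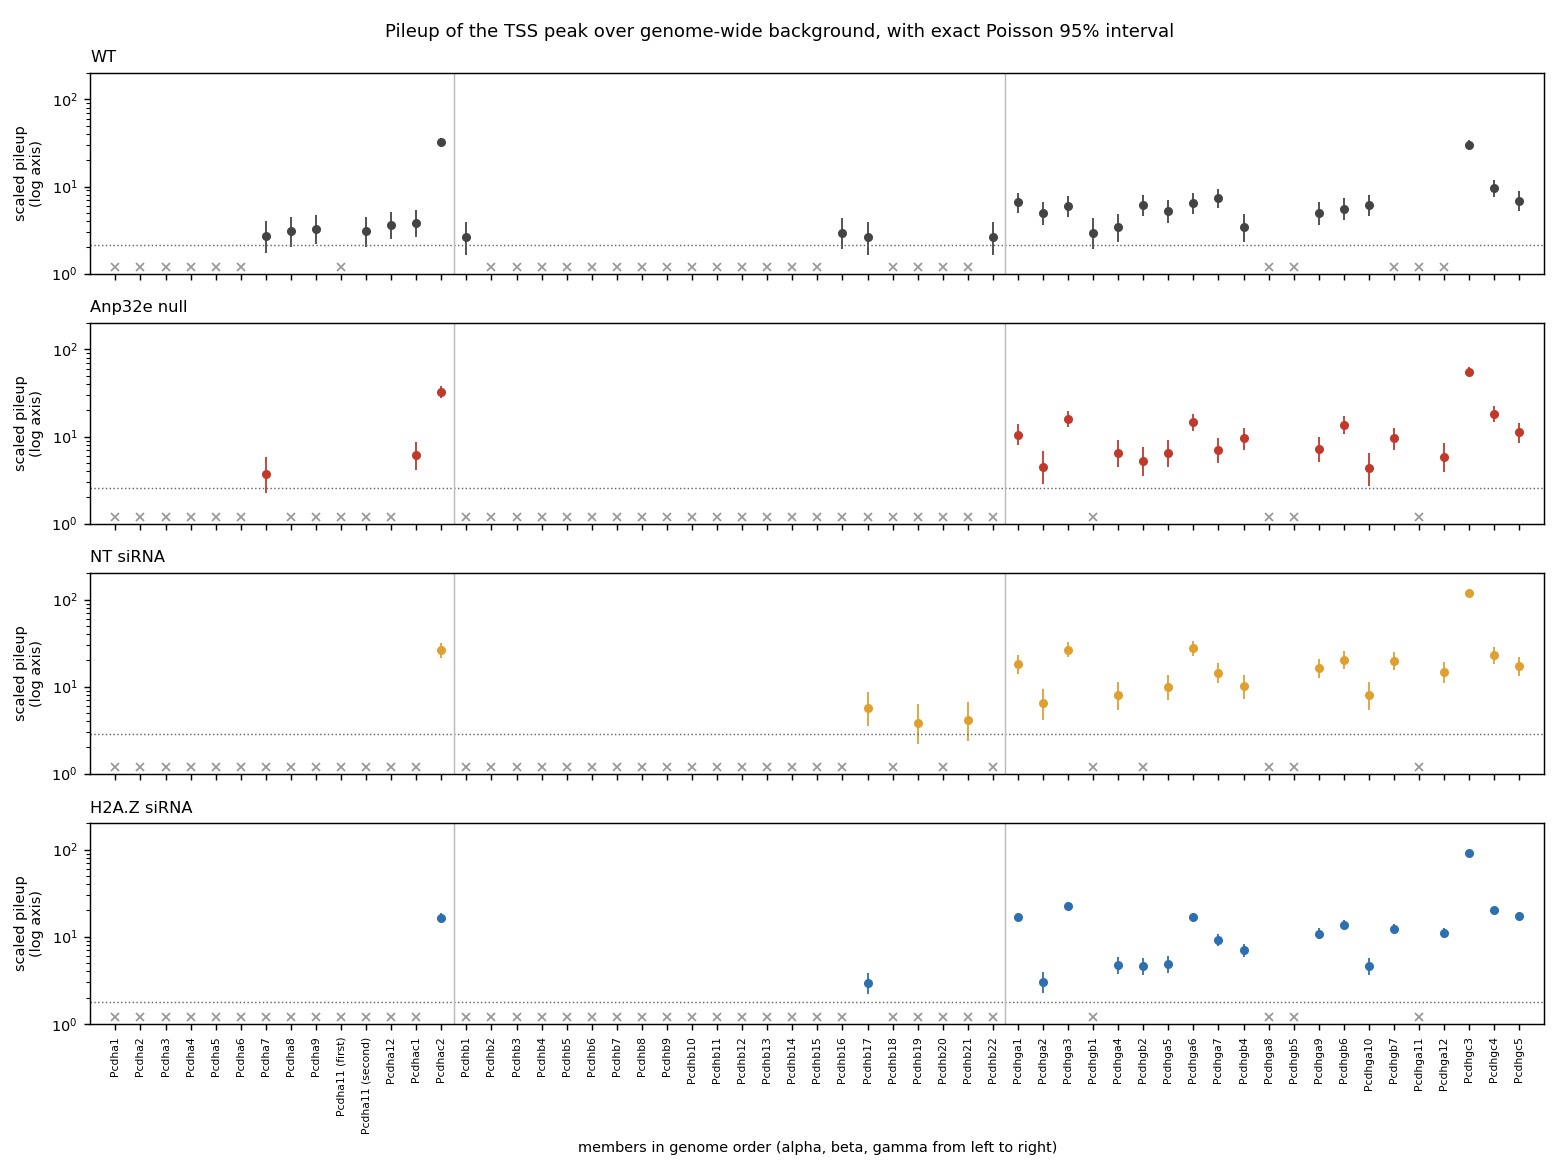
Scaled pileup of the TSS peak (vertical log axis, times genome-wide background) of all 57 members in genome order, 1 panel per pooled list, with exact Poisson 95% intervals. Crosses mark members with no peak and the dotted line the lowest level called at background; gamma genes carry peaks in all panels, whereas alpha and beta genes other than Pcdhac2 stay below 7.

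Across the 15 members of all 4 lists, the order of levels was more alike between Anp32e null and NT siRNA (Spearman's rho 0.95) and between NT siRNA and H2A.Z siRNA (0.90) than between WT and Anp32e null (0.65). These are descriptions across genes, which share their lists, local background and base composition and are not independent replicates.

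TSS peaks of members were narrower and ranked lower than those of other genes. In WT the median width was 583 bp at the 27 members and 1156 bp at the 14732 protein-coding genes with a TSS peak. The median fold percentile was 41.0 against 81.5, and the median scaled pileup 4.97 against 16.7. Within the cluster it was 3.28 in the alpha part, 2.60 in the beta part and 6.05 in the gamma part. The summit lay downstream of the TSS at 21 of 27 members (median 129 bp) but at 50.8% of all genes (median 2 bp). The same held in Anp32e null, with 14 of 20 members downstream against 47.9% of all genes, and in NT siRNA, with 17 of 20 against 47.1%. In H2A.Z siRNA 12 of 19 were downstream, at a median of 69 bp, against 47.7% of all genes. All 4 beta summits in WT fell inside the coding exon, at 129 to 595 bp from the TSS.

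The DNA around the starts differed too. From 250 bases before to 50 bases after the 5' end, median GC content was 39.7% over the 57 members and 55% over 21931 protein-coding genes. The members in no list (26 genes) and those in any list (31 genes) had medians of 39.7% and 40%. Pcdhgc3 at 62%, Pcdhac1 at 60.7%, Pcdhgc5 at 54.7% and Pcdhac2 at 52.3% were the richest in GC. The highest GC was 62% among members in any list and 45.3% among those in none. The letters CGCT, the core of an element shared by many protocadherin promoters, were found on either strand of this window in 55 of 57 members and in 67.1% of all such windows, which is frequent for so short a motif. Pcdhb22 and Pcdhga12 were the members without it, and both had a TSS peak in at least 1 list. Since the genes are close relatives, runs of 150 bases repeated within the cluster were counted. They made up at most 6.97% of the 1 kb flanks of any member, with none in the gamma part.

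The comparison of Anp32e null with WT asks how loss of the H2A.Z chaperone changed these promoters. There were 9 members with a TSS peak in WT but not in Anp32e null (1.89% of all genes), and 2 with one in Anp32e null but not in WT (1.4% of all genes). The 9 were Pcdha8, Pcdha9, Pcdha11 and Pcdha12, the beta genes Pcdhb1, Pcdhb16, Pcdhb17 and Pcdhb22, and Pcdhgb1. The 2 were Pcdhgb7 and Pcdhga12. On the rest of chromosome 18, 5 of 456 genes were in WT alone and 7 in Anp32e null alone. Thus alpha and beta calls were fewer in Anp32e null (3 against 7 and 0 against 4), while gamma calls differed at 3 genes, with 2 in Anp32e null alone and 1 in WT alone. The beta difference ended at a -log10 q of 5 or more, with 0 beta members in both lists, and with the 20000 strongest peaks of each list alpha counts were 1 in both and beta counts 0 in both. Scaled to the depth of NT siRNA, 1 beta member was left in WT.

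The WT peaks at these 9 members were weak. Among the alpha genes, the pileup was 32 (21.9 to 45.2) at Pcdha12, 29 (19.4 to 41.6) at Pcdha9, and 27 (17.8 to 39.3) at both Pcdha8 and Pcdha11. They stood at fold percentiles 36.7, 29.3 and 23.5, with summits from 22 bp upstream (Pcdha11) to 253 bp downstream (Pcdha8) of the TSS. These 4 genes lie close together, with the other gene named Pcdha11 among them, and the weak peak just before them, at Pcdha7, was kept at 24 (15.4 to 35.7) in WT and 19 (11.4 to 29.7) in Anp32e null.

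Of the beta genes, Pcdhb16 had a WT pileup of 26 (17.0 to 38.1), while Pcdhb1, Pcdhb17 and Pcdhb22 each had 23 (14.6 to 34.5). Their percentiles were 20.4 and 10.5, near the bottom of the list. Pcdhgb1 also had 26 (17.0 to 38.1), with its summit 171 bp downstream of the TSS. At all 9 peaks the local background was the genome-wide one.

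The lists differ in depth. When every WT pileup was scaled down to the background of the Anp32e null list, all 9 members were still called in WT. Had they kept their scaled level of 2.60 to 3.62, their pileups in Anp32e null would have been 13.3 to 18.5, close to the lowest value called there, 13. Had they moved like the median gene, they would have been 20.9 to 29.1. Calls of such weak peaks were often absent from Anp32e null in the genome at large: of 621 genes whose WT TSS pileup was between 23 and 32, 39.6% had no TSS peak there. On chromosome 18 with the members left out it was 5 of 19 genes, or 26.3%. That range is the one spanned by the 9 members themselves, so their own share in it is not read against these values. At a stricter threshold (-log10 q of 5 or more) 3 members had a TSS peak in WT and not in Anp32e null.

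Among the 2 members called in Anp32e null alone, Pcdhgb7 had a pileup of 49 (36.3 to 64.8) there, 77 (60.8 to 96.2) in NT siRNA and 221 (193 to 252) with H2A.Z siRNA. Its fold percentile was between 66.8 and 77.3. Pcdhga12 had 30 (20.2 to 42.8), 57 (43.2 to 73.9) and 197 (170 to 227) in the same order. Both were thus called in all 3 lists of Anp32e null cells and not in WT.

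For the 18 members with peaks in both lists, the ratio of scaled pileups was taken relative to that of the median gene, which was 0.65 on the log2 scale over 13944 genes. Chromosome 18 as a whole lay above the median gene, with a median of 0.25 over 341 other genes, of which 292 were above it. The members' median was 0.02, with 10 of 18 above the median gene. The gamma median was 0.04 over 15 genes and the alpha median -0.20 over 3. Intervals lay wholly above the median gene for 4 members and wholly below for 5, and they held it for 9. Of the 4 above, Pcdhgb4, Pcdhgb6 and Pcdhga6 had intervals that also held the chromosome 18 median of 0.25. The interval of Pcdhga3 began at 0.25.

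The highest ratios were at Pcdhgb4, Pcdhga3 and Pcdhgb6. Pcdhgb4 went from a pileup of 30 (20.2 to 42.8) in WT to 49 (36.3 to 64.8) in the shallower Anp32e null list, which is 0.85 (0.16 to 1.55) relative to the median gene. Pcdhga3 went from 53 (39.7 to 69.3) to 82 (65.2 to 102), a relative 0.77 (0.25 to 1.30). Pcdhgb6 went from 49 (36.3 to 64.8) to 70 (54.6 to 88.4), a relative 0.65 (0.11 to 1.21). These genes also gained 40.9, 18.4 and 24.7 fold percentiles.

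The lowest ratios were at Pcdhga10, Pcdhgb2 and Pcdhga2. Pcdhga10 went from 54 (40.6 to 70.5) to 22 (13.8 to 33.3), a relative -1.16 (-1.94 to -0.42), and its fold percentile dropped by 49.5. It was the 1 member more than 2-fold below the median ratio, as were 0.939% of all genes, and no member was more than 2-fold above it, as were 0.179%. Pcdhgb2 went from 54 (40.6 to 70.5) to 27 (17.8 to 39.3), a relative -0.86 (-1.58 to -0.17). Pcdhga2 went from 44 (32.0 to 59.1) to 23 (14.6 to 34.5), a relative -0.80 (-1.59 to -0.04). Adjacent gamma promoters, such as Pcdhga2 and Pcdhga3 or Pcdhgb6 and Pcdhga10, thus lay on opposite sides of the median gene. These pairs were taken from the highest and lowest ratios. Not set against the median gene, the log2 ratio was -0.15 (-0.94 to 0.61) at Pcdhga2 and -0.51 (-1.29 to 0.23) at Pcdhga10. Both of these intervals held 0. Pcdhac2 stood at -0.63 (-0.92 to -0.35).

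**Figure D3:**
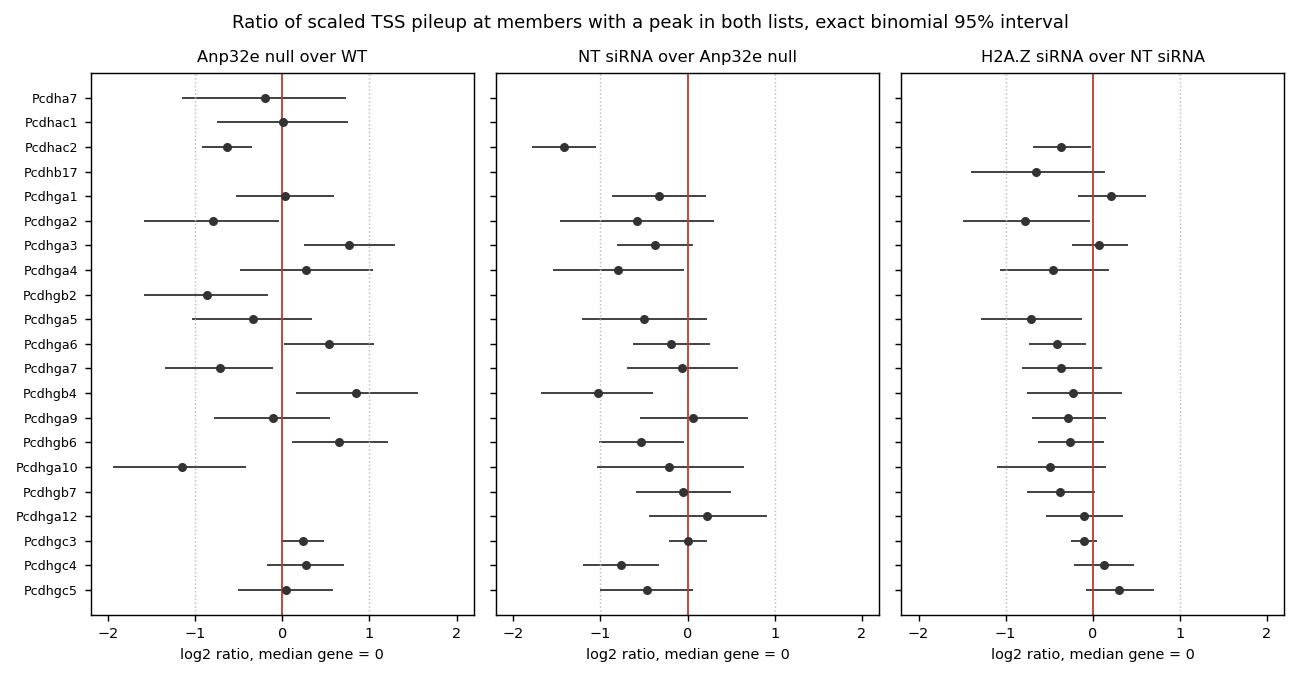
Log2 ratio of scaled TSS pileup (horizontal axis, median gene at 0, dotted lines at 2-fold) for members with a peak in both lists of each comparison, with exact binomial 95% intervals for counting error. In the first panel gamma genes scatter from -1.16 to 0.85, in the third 14 of 18 points lie left of the median gene.

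NT siRNA cells differ from Anp32e null cells by transfection and by being 1 library, so this comparison shows how far lists of the same genotype can differ. This comparison and the previous one share the Anp32e null list. NT siRNA alone had TSS peaks at 3 members (2.03% of all genes), Pcdhb17, Pcdhb19 and Pcdhb21, and Anp32e null alone at 3 (1.85%), Pcdha7, Pcdhac1 and Pcdhgb2. Calls thus differed at 6 members between lists of the same genotype, against 11 between WT and Anp32e null. Pcdhb17 was at 22 (13.8 to 33.3) in NT siRNA after being called in WT and uncalled in Anp32e null. Pcdhb19 was at 15 (8.40 to 24.7) and Pcdhb21 at 16 (9.15 to 26.0), near the lowest value called.

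Over the 17 members with peaks in both lists, the median ratio relative to the median gene was -0.37, with 3 above it. Pcdhac2 at -1.42 (-1.78 to -1.05) and Pcdhgb4 at -1.03 (-1.68 to -0.40) were more than 2-fold below the median ratio, as were 7.72% of all genes, although the deposited fold enrichment of Pcdhac2 was higher in NT siRNA (log2 0.29). No member was more than 2-fold above it, as were 7.49%. The next lowest was Pcdhga4 at -0.79 (-1.55 to -0.04), although by fold percentile it rose by 3.43. The 3 above the median gene were Pcdhga12 at 0.22 (-0.44 to 0.91), Pcdhga9 at 0.06 (-0.54 to 0.69) and Pcdhgc3 at 0.01 (-0.21 to 0.23), none beyond counting error.

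The comparison of H2A.Z siRNA with NT siRNA asks what lowering H2A.Z did in Anp32e null cells. It shares the NT siRNA list with the previous one. Pcdhgb2 was called in H2A.Z siRNA alone (2.06% of all genes), with a pileup of 81 (64.3 to 101) and its summit 32 bp downstream of the TSS. Pcdhb19 and Pcdhb21 were called in NT siRNA alone (0.483% of all genes). Pcdhb17 was in both, at 22 and at 52 (38.8 to 68.2), which is 5.67 and 2.92 times background. The alpha part had the same single gene, Pcdhac2, in both lists.

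In scaled pileup, all 18 members with peaks in both lists were lower in H2A.Z siRNA, with a median log2 ratio of -0.63, but the median of all genes was also below 0, at -0.31. Relative to the median gene, the members' median was -0.32 and 4 of 18 were above it. The other genes of chromosome 18 stood at -0.04. By difference of fold percentile the peaks shared across the cluster had a median of 3.65 over 30 sites, beside 4.71 on chromosome 18. No member was more than 2-fold above the median ratio, as were 0.239% of all genes, and none was more than 2-fold below it, as were 0.26%.

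The lowest members were Pcdhga2, Pcdhga5 and Pcdhb17. Pcdhga2 went from 25 (16.2 to 36.9) in NT siRNA to 54 (40.6 to 70.5) in the deeper H2A.Z siRNA list, a relative -0.78 (-1.49 to -0.04). Pcdhga5 went from 38 (26.9 to 52.2) to 86 (68.8 to 106), a relative -0.71 (-1.28 to -0.12). For Pcdhb17 the relative ratio was -0.65 (-1.40 to 0.14).

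The highest were Pcdhgc5, Pcdhga1 and Pcdhgc4. Pcdhgc5 stood at 0.30 (-0.08 to 0.71) relative to the median gene. Pcdhga1 went from 70 (54.6 to 88.4) to 301 (268 to 337), a relative 0.21 (-0.17 to 0.61). Pcdhgc4 stood at 0.12 (-0.21 to 0.48), so no member was above the median gene beyond counting error. The 4 below it were Pcdhac2, Pcdhga2, Pcdhga5 and Pcdhga6.

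Across the whole cluster, 45 peaks were listed in WT, 40 in Anp32e null, 32 in NT siRNA and 35 with H2A.Z siRNA. Counting only peaks with their summit inside, which leaves 34 in the last list, there were 4.94, 4.39, 3.51 and 3.73 per 100 kb. Anp32e null had 0.889 peaks per WT peak in the cluster and 1.09 on chromosome 18, but with the 20000 strongest peaks of each list the ratio turned to 2 in the cluster (8 against 4 peaks) and was 1.09 on chromosome 18. The gamma part was the densest, with 12.8 to 13.3 peaks per 100 kb in all 4 lists. The alpha part had 4.66 per 100 kb in WT, 2.72 in Anp32e null, 1.17 in NT siRNA and 1.94 with H2A.Z siRNA, and the beta part 2.31, 1.16, 1.16 and 0.385. Chromosome 18 held 3.22 to 4.29. So the count of alpha peaks was highest in WT, and that of gamma peaks hardly moved.

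Merged over the lists, these peaks, with the 1 that reaches across the cluster end, made 54 sites, of which 26 were in all 4 lists and 10 in WT alone. Of the 26 sites, 21 were in the gamma part and 3 in the alpha part. Sites shared by WT and Anp32e null had a median log2 ratio of scaled pileup of 0.69 over 34 cluster sites, 0.79 over 2423 on chromosome 18 and 0.59 over all chromosomes. The sign rests on the scaling, since centred on the strongest 1000 sites it was -0.11 in the cluster, and by difference of fold percentile the medians were -5.26 in the cluster and -0.298 on chromosome 18. By fold enrichment they were 0.20 and 0.30. By scaled pileup it was 0.02 over 7 alpha sites and 0.88 over 22 gamma sites. From Anp32e null to NT siRNA, 3 alpha sites had a median of -0.65 and 23 gamma sites 0.77, beside 0.75 on chromosome 18. The alpha sites therefore lay below the chromosome-wide shift in both comparisons, which share the Anp32e null list, and the gamma sites lay close to it. From NT siRNA to H2A.Z siRNA the median was -0.49 over 30 cluster sites and -0.29 on chromosome 18, but by fold enrichment it was -0.14 in both. In scaled pileup the 3 alpha sites had a median of 0.03, above the chromosome, and the 24 gamma sites one of -0.43.

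**Figure D4:**
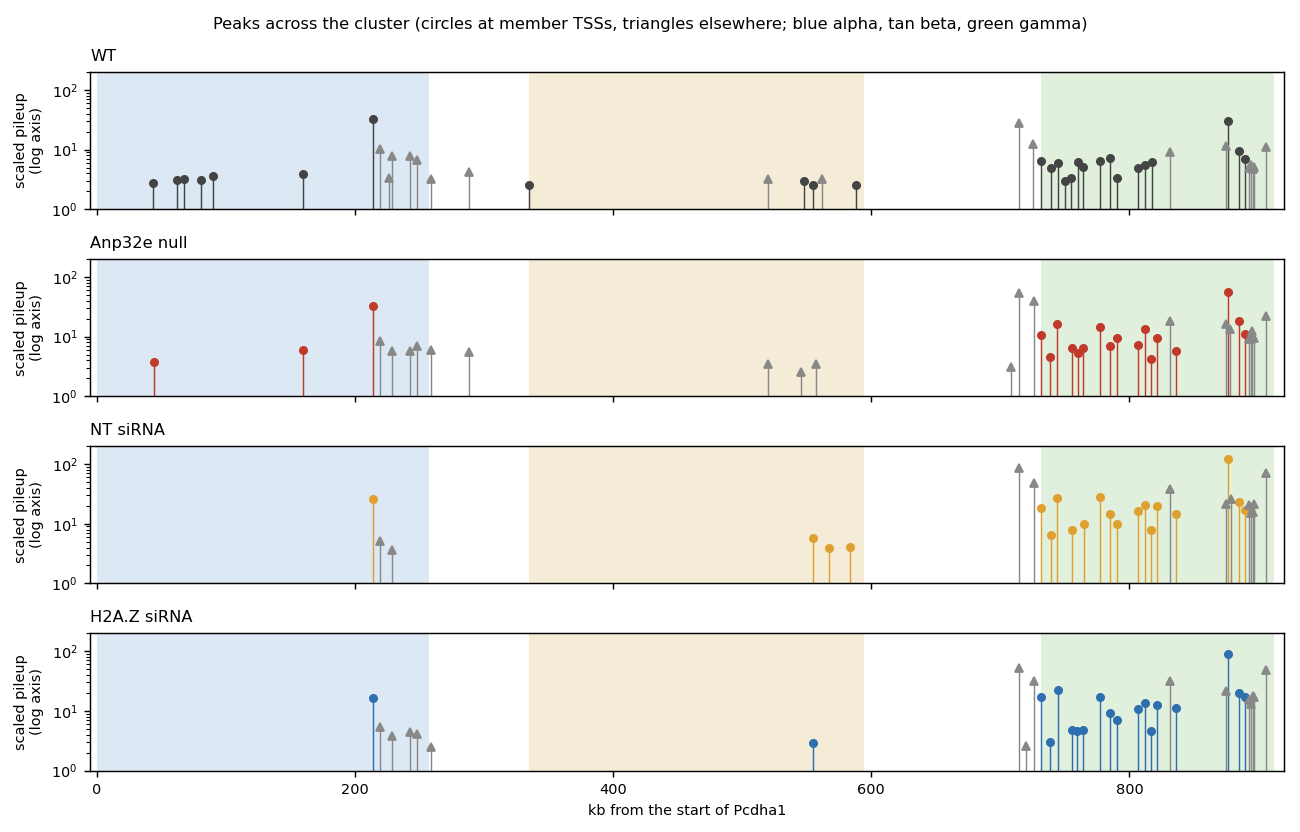
Scaled pileup (vertical log axis, times genome-wide background) of every peak in the cluster against distance in kb from the start of Pcdha1, 1 panel per pooled list, with circles at member TSSs and triangles elsewhere. The gamma end (green) is filled in all 4 panels, whereas the alpha part (blue) holds 12 peaks in WT and 3 in NT siRNA.

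Several of the strongest peaks in the span were not at members. Taf7, a subunit of the general transcription factor TFIID whose gene lies between the beta and gamma parts, had pileups of 246 (216 to 279), 272 (241 to 306), 334 (299 to 372) and 938 (879 to 1000) in WT, Anp32e null, NT and H2A.Z siRNA. Its fold percentile was between 98.4 and 99.8, above that of every member in the same list. The lincRNA 3222401L13Rik, just before Pcdhga1, had 108 (88.6 to 130), 204 (177 to 234), 189 (163 to 218) and 565 (519 to 614). Pcdhgb8, which the annotation lists as a polymorphic pseudogene and the rule therefore left out, had 81 (64.3 to 101), 92 (74.2 to 113), 150 (127 to 176) and 563 (517 to 611).

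Around the alpha constant exons, known to hold enhancers of the alpha genes, 5 sites away from any member TSS were found in WT inside the alpha part, and 2 more between it and the beta part. A site 5970 bp downstream of the Pcdhac2 TSS had pileups of 89 (71.5 to 110), 44 (32.0 to 59.1), 20 (12.2 to 30.9) and 94 (76.0 to 115), and it was in all 4 lists. Another site of this region, in all 4 lists, had 68 (52.8 to 86.2), 29 (19.4 to 41.6), 14 (7.65 to 23.5) and 68 (52.8 to 86.2). One at the start of the antisense gene Gm38097 had 69 (53.7 to 87.3), 30 (20.2 to 42.8) and 79 (62.5 to 98.5) in WT, Anp32e null and H2A.Z siRNA, and none was called in NT siRNA. One at Gm10544 had 60 (45.8 to 77.2), 36 (25.2 to 49.8) and 73 (57.2 to 91.8) in the same lists. Scaled, the site downstream of Pcdhac2 stood at 10.1 in WT, 8.60 in Anp32e null, 5.15 in NT siRNA and 5.28 with H2A.Z siRNA. The 2 sites beyond the alpha part stood higher in Anp32e null than in WT, at 6.06 against 3.28 and 5.47 against 4.30, and neither was called in NT siRNA. Positions of the named enhancers were not in the annotation used here.

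The gamma constant region also held peaks in every list. Its broadest site, between 1655 and 1818 bp wide and close to the end of the cluster, had pileups of 96 (77.8 to 117), 113 (93.1 to 136), 277 (245 to 312) and 858 (802 to 917). A narrower site of the same region had 45 (32.8 to 60.2), 49 (36.3 to 64.8), 84 (67.0 to 104) and 308 (275 to 344). In H2A.Z siRNA a further peak of 306 (273 to 342) fragments reached across the cluster end, with its summit outside. Over the stretch from 1 kb before Pcdhgc3 to the cluster end, the median local background of peaks was 2.01, 3.41, 5.89 and 5.39 times the genome-wide one, and 8 or 9 peaks were listed in each group.

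Marker genes of neurons, the cells that use these promoters most, were looked at beside the members. In each list 4 of 6 neuron genes had a TSS peak, Tubb3, Rbfox3, Snap25 and Syt1, while Neurod1 and Elavl3 had none. Their scaled pileup ranged from 5.99 to 16.5 in WT, from 8.80 to 21.9 in Anp32e null, from 10.0 to 58.2 in NT siRNA and from 5.16 to 31.3 in H2A.Z siRNA. Relative to the median gene, their median ratio was -0.17 from WT to Anp32e null and -0.87 from Anp32e null to NT siRNA, though Tubb3 stood at 1.31 in the latter. From NT siRNA to H2A.Z siRNA it was -0.52, beside -0.32 for the members. By scaled pileup Pcdhac2 was likewise below the median gene in each comparison, at -0.63, -1.42 and -0.36 (-0.69 to -0.02). What part the neuron genes have in the result was not tested.

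Genes that shape or silence the cluster were open throughout. All 17 on this list, among them Ctcf, the cohesin genes Rad21, Smc1a and Smc3, and the silencers Smchd1, Setdb1 and Dnmt3b, had TSS peaks in all 4 lists. Their median ratios relative to the median gene were 0.12, 0.03 and 0.02 in the 3 comparisons. For Ctcf, the insulator protein, scaled pileup was 11.1, 14.7, 52.3 and 50.7. Relative to the median gene, its ratio was -0.25, 0.73 and 0.26 in the 3 comparisons. Signalling partners of the protocadherins, the kinases Ptk2, Ptk2b, Fyn and Ret, were likewise called in all 4 lists.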

How the data were processed

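ATAC-seq of mouse embryonic fibroblasts was used as 4 deposited peak lists, each pooling the libraries of its group (9 libraries in all). Per the study's methods, the authors aligned 150 bp read pairs to mm10 with Bowtie2, used Picard against duplicates and MACS2 to find peaks from whole fragments. Their reporting summary gives Bowtie2 2.3.4.1, Picard 2.18.23 and MACS2 2.1.4, and says that 1 over-tagmented replicate of the H2A.Z knockdown experiment was left out, without naming its arm. The deposited fold enrichment is a ratio of pileup to local background, each with a pseudocount of 1, and the deposited -log10 p-values and -log10 q-values come from a Poisson model. Pileup and local background were solved from fold and -log10 p, and 100% of pileups came out whole within 0.05. The genome-wide background is the most frequent local background of a list.

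A member was called where a peak overlapped the 1 kb on either side of any TSS in GENCODE M21 by at least 1 bp, and its highest peak was used. Ratios used peaks in both lists, with exact Poisson intervals for pileups and exact binomial (Clopper-Pearson) intervals for ratios, at 95%. Fold percentiles are ranks within a list. Base composition came from the GRCm38 genome. With pooled lists there are no replicates, so no test was made and counts are set beside all protein-coding genes and chromosome 18. Recovery of pileups was tested on simulated data. Genes given in full were the C-type genes, the 5 of highest WT percentile, those whose call differed, the 3 highest and 3 lowest ratios per comparison, and the strongest other peaks of the span. Members and lists were chosen with earlier results of these data known. Alternatives varied the peak threshold, list length, depth, window, TSS set, overlap, span and scaling. Python 3.11.15, NumPy 2.4.6, SciPy 1.17.1, pandas 2.3.3 and matplotlib 3.10.9 were used.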

Additional observations from a re-analysis of the deposited data

How the results depend on the processing

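No paired analysis was possible because each peak list pools the libraries of its group, and for the same reason no replicate could be left out. Of 241 values under alternatives, 194 kept their direction and stayed within 1.5 times the reported count or the interval of the reported median, 39 moved and 8 reversed. The cause of the moves was not tested, except that fewer peaks were kept under the stricter threshold and shorter lists. With a -log10 q of 5 or more, the alpha count in WT was 4, the beta counts 0 in WT and 1 in NT siRNA, and 3 members were in WT but not in Anp32e null and 0 in NT siRNA but not in H2A.Z siRNA. With equal list lengths, 1 beta member was left in NT siRNA and 0 with H2A.Z siRNA. Scaled to the depth of NT siRNA, 1 beta member was left in WT.

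With the top 20000 peaks of each list, members called were 2 in WT, 4 in Anp32e null, 2 in NT siRNA and 2 with H2A.Z siRNA (alpha 1, 1, 0 and 0; beta 0 in WT and both siRNA lists; gamma 1, 3, 2 and 2), with 0 in WT alone of that pair, 1 in NT siRNA alone and 4, 8, 6 and 6 peaks across the cluster, so that Anp32e null peaks per WT peak reversed to 2.

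The median log2 ratio at shared sites, Anp32e null against WT, was -0.11 in the cluster and -0.0106 on chromosome 18 when centred on the strongest 1000 sites, both reversed, 0.10 and 0.20 when centred on all sites, 0.20 and 0.30 by fold enrichment, and 0.82 on chromosome 18 at the stricter threshold. By fold percentile the medians reversed to -5.26 and -0.298. For H2A.Z siRNA against NT siRNA they were -0.18 in the cluster and, reversed, 0.0192 on chromosome 18 on the strongest sites, -0.22 and -0.0205 on all sites, -0.14 and -0.14 by fold enrichment, and by percentile they reversed to 3.65 and 4.71. A scaling of the deeper list of each pair to the shallower one, chosen after the data had been seen, left every count of members as it was and gave 33 cluster peaks in H2A.Z siRNA against 35. The lowest pileups called at background, 19, 13, 11 and 32 in the order of the groups, bound what each list can show.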

Other observations

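Protocadherin genes outside the clusters, which lie singly on several chromosomes, were compared as a list of 12. A TSS peak was found at 12 of them in WT, 11 in Anp32e null and 10 in each siRNA list. Of the 57 clustered genes, 27 had one in WT, 20 in Anp32e null, 20 in NT siRNA and 19 with H2A.Z siRNA. The share was 76.2% to 81.0% in the gamma part and 66.7% to 68.4% among all protein-coding genes. These are counts of calls, the difference was not tested, and an uncalled gene is not shown to be closed. Relative to the median gene, the median ratio of the non-clustered genes was -0.59 from WT to Anp32e null. It was -1.04 from Anp32e null to NT siRNA and -0.23 from NT siRNA to H2A.Z siRNA. Pcdh9 had scaled pileups of 37.1, 28.3, 29.9 and 13.5 in WT, Anp32e null, NT and H2A.Z siRNA. Pcdh17 had 18.3, 16.4, 17.0 and 6.23. Pcdh10 had 20.8, 21.7, 13.1 and 5.78, and Pcdh20 had 11.0, 8.60, 6.18 and 3.09. Of the 10 called in all lists, 5 were lowest in H2A.Z siRNA by scaled pileup, these 4 among them, and 5 in WT. Those lowest in WT were Pcdh1, Pcdh7, Pcdh12, Pcdh18 and Pcdh19, at 8.25, 31.9, 6.44, 20.2 and 32.1, and Pcdh11x was called in WT alone.

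Of the 10 protein-coding genes nearest to the cluster, 5 on each side, all had TSS peaks in WT, 9 in Anp32e null, 9 in NT siRNA and 10 with H2A.Z siRNA. From WT to Anp32e null, their median ratio relative to the median gene was 0.21 over the 8 with a ratio. Diaph1, a formin gene just beyond the gamma end, was the lowest of these, at 0.00. Slc25a2, a mitochondrial carrier gene inside the span, had a TSS peak in Anp32e null alone, with a pileup of 16 (9.15 to 26.0).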
